A study of Mus musculus with 4 samples.

Results

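The 10 genes described here encode 3 Wnt ligands (Wnt5a, Wnt10b and Wnt11), 6 secreted Wnt antagonists (Sfrp1, Sfrp2, Sfrp4, Wif1, Dkk2 and Dkk3) and Dact2, an intracellular Dishevelled-binding protein. They were taken by name from the 31053 genes of the count tables, and all 10 were present. Aortic arches with their main branches and perivascular tissue were pooled by group, dissociated, and the DAPI-negative cells were profiled as 4 single-cell libraries, 1 per group. The normocholesterolemic Nrf2flox/flox group (genotype written Nrf2Cdh5Lox in the labels) and the normocholesterolemic Nrf2Cdh5tKO group were each 4 male mice given saline and a standard diet. The atherosclerotic Nrf2flox/flox and atherosclerotic Nrf2Cdh5tKO groups were each 3 male mice given a regimen that included a high-fat diet for 21 weeks. All mice were 3 months old at the start and carried floxed Nfe2l2 (Nrf2) alleles. In Nrf2Cdh5tKO mice Cre under the Cdh5 promoter removes exon 5 in endothelial cells and in part of the hematopoietic cells. The parts of the atherosclerotic regimen cannot be told apart, and with 1 pooled library per group no test between groups was possible. Values for the libraries are given throughout in the order in which the groups were introduced.

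Wnt proteins are secreted lipid-modified ligands that bind Frizzled receptors and their coreceptors, and signal either through beta-catenin or through routes that do not need it. Secreted Frizzled-related proteins (Sfrp) and Wif1 bind Wnt proteins outside the cell, Dickkopf proteins such as Dkk2 act on the Lrp5 and Lrp6 coreceptors, and Dkk3 is a divergent Dickkopf protein whose role in Wnt signalling is less settled. In the vessel wall the adventitia holds fibroblasts of several kinds, among them Pi16-expressing cells regarded as progenitor-like, next to the smooth muscle cells of the media.

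Of 15599 barcodes, 14148 cells passed the filters (7890, 2972, 1020 and 2266 cells), with median depths of 12133, 14153, 10963 and 9201 UMIs. Marker genes placed 13205 of them in a cell type, including 8033 cells gated as fibroblasts (4597, 1657, 494 and 1285), 2357 as smooth muscle cells, 1294 as macrophages, 236 as type 2 dendritic cells and 162 as endothelial cells. All 7 fibroblast markers were present in the fibroblasts of every library, where they summed to 23649 to 25251 CPM (UMIs per 1000000 UMIs). Pairs of libraries shared 2 to 10 barcodes, and doublets were left in. Nfe2l2 was not lower in endothelial cells of the libraries labelled Nrf2Cdh5tKO (186, 391, 170 and 345 CPM, from 71, 100, 29 and 55 UMIs). The 3′ counts may lie outside the deleted exon, so this is no check of the deletion, and genotype is given as labelled.

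Fibroblasts were split by the gene with most UMIs among Pi16, Penk, Cilp and Comp. The Pi16 fibroblasts numbered 3446, 1441, 394 and 899 cells, the Comp fibroblasts 257, 55, 32 and 148, the Penk fibroblasts 264, 53, 13 and 43, and the Cilp fibroblasts 68, 23, 7 and 6. In the remaining 562, 85, 48 and 189 fibroblasts none of the 4 genes led. These last cells were shallow, with a median of 4617 UMIs against 12202 to 13625 in the other groups. Levels are in CPM, the summed UMIs of a gene in a group of cells of a library per 1000000 UMIs of those cells, and they were compared between cells only within a gene.

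Wnt10b lies at chr15:98770712-98778150 on the minus strand, and Dact2 at chr17:14195052-14204304, also on the minus strand (GRCm38/mm10, GENCODE M21). With the split by most UMIs, both were held almost wholly by 1 fibroblast group, so their 250 bases upstream of the RefSeq start (GRCm38.p6) are shown, together with those of Wnt11, the ligand most abundant in dendritic cells. The Dact2 stretch lies inside the longer GENCODE gene. Capitals mark ATCAAAG, a motif bound by the TCF/LEF factors through which beta-catenin acts.
Wnt10b, chr15:98778151-98778400, minus strand: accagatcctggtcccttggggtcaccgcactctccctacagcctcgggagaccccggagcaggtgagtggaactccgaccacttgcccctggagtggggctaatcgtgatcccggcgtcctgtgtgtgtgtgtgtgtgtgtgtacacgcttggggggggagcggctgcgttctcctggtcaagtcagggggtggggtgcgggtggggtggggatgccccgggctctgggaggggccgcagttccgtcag
Dact2, chr17:14203832-14204081, minus strand: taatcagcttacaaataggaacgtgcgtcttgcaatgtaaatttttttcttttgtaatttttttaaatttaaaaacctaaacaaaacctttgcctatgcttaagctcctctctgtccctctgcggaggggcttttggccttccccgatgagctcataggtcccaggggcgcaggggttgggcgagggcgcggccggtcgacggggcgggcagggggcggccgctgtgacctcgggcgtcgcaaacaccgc
Wnt11, chr7:98834862-98835111, plus strand: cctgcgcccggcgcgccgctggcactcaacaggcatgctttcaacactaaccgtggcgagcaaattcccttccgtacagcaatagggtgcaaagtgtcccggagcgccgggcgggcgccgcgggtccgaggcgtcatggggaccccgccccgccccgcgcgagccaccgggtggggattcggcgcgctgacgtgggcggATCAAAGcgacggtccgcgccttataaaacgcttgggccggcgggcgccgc
Promoter windows of 300 bases (250 before and 50 after the start) were available for 6 members, Sfrp2, Wif1, Dkk2, Wnt10b, Wnt11 and Dact2. ATCAAAG occurred on either strand in 1 window of Wnt11, against 3.73% of 32544 RefSeq windows. The antioxidant response motif TGACNNNGC, the kind of site to which Nrf2 binds, occurred in the window of a second Wnt11 start, against 12.4% of all windows. Neither motif was found in the windows of the other 5 genes, which says only that these letters were absent there.

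The other members have the following positions in the mouse genome (GRCm38/mm10, GENCODE M21). On the plus strand are Sfrp1 at chr8:23411502-23449632, Sfrp2 at chr3:83766321-83774316, Sfrp4 at chr13:19623104-19632994, Wif1 at chr10:121033960-121100650, Dkk2 at chr3:132085292-132180304, Wnt5a at chr14:28504750-28527448 and Wnt11 at chr7:98835112-98855195. Dkk3 is on the minus strand at chr7:112116017-112159057. Genes of the opposite strand overlap Sfrp2 (Gm26771), Wnt5a (Gm2670), Wnt11 (Gm8398) and Dact2 (AC151292.1).

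The ligands differed in the cells that held them. Wnt5a, a ligand known mainly for signalling without beta-catenin, measured 109, 170, 223 and 159 CPM in fibroblasts and 11, 11.9, 17.5 and 18.6 in smooth muscle cells. It was at 0 UMIs in the endothelial cells of all 4 libraries. The fibroblast values lay above those of every other cell type with enough cells, with no overlap, and fibroblasts held 95.6% of its UMIs. Fibroblasts were 8033 of the 14148 cells, so shares of UMIs given here and below depend in part on group size. The share of cells with a Wnt5a UMI, after each cell was thinned to 3000 UMIs, was 25.0%, 33.3%, 38.4% and 35.5% in fibroblasts, and 0.876%, 0.741%, 1% and 0.490% in macrophages, taken as the background of free RNA. Without thinning the fibroblast shares were 52.8%, 62.5%, 71.3% and 60.5%. Thinning left out 429, 102, 38 and 206 fibroblasts and 149 macrophages in all, and median depth was 12092, 16594, 14013 and 10626 UMIs in fibroblasts against 9915, 7205, 7110 and 7419 in macrophages. Intervals and depth limits given here cover counting error only.

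Wnt10b, a ligand of the beta-catenin route, was at 20.8, 17.7, 26.4 and 20.9 CPM in fibroblasts, which held 97.1% of its UMIs. Wnt11, another ligand known for signalling without beta-catenin, was present in both stromal and immune cells. Fibroblasts gave 30.2, 20.5, 33.7 and 25.6 CPM of Wnt11, and cells gated as type 2 dendritic cells gave 227, 93.8, 63.5 and 91.7, from 530, 46, 31 and 50 UMIs. In CPM, the dendritic values lay above the fibroblast values in every library. A Wnt11 UMI was seen in 58.3%, 21.4%, 22.2% and 40.0% of the dendritic cells, and after thinning in 43.9% of 139, 7.69% of 26, 3.85% of 26 and 26.7% of 30 cells. The thinned shares of fibroblasts were 7.75%, 6.56%, 9.43% and 6.21%. By that measure the dendritic cells were below fibroblasts in the atherosclerotic Nrf2flox/flox library and close to them in the normocholesterolemic Nrf2Cdh5tKO library. In macrophages, at 1.61 CPM in total, the share was 0.699% after thinning and 1.24% before, and median depth was 15861 UMIs in the dendritic cells against 8877 in macrophages. Thus most Wnt11 of the dendritic cells came from the normocholesterolemic Nrf2flox/flox library, which also held 151 of these 236 cells. By edgeR's quasi-likelihood test on library sums, Wnt11 was higher in type 2 dendritic cells than in macrophages by 6.62 on the log2 scale (SE 0.35, adjusted p = 4.8e-13). It was the 1 member called, on the higher side, of 9 tested in this contrast, where 15.1% of the 10916 genes tested were called higher. The paper on these libraries had already named Wnt11 among the genes higher in its type 2 dendritic cells, so this p-value is no independent evidence. The contrast was added after the levels had been seen, and the summed macrophage markers in these dendritic cells were 10948, 7208, 3775 and 4390 CPM, with 7 of 7 markers above 0. Their part in the result was not tested.

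Among the antagonists, Sfrp2 and Sfrp4 were fibroblast genes. Sfrp2 stood at 1131, 1083, 1824 and 2117 CPM in fibroblasts and at 215, 522, 645 and 450 in smooth muscle cells. Sfrp4 stood at 246, 285, 398 and 382 in fibroblasts and at 20.3, 16.4, 31.4 and 27.1 in smooth muscle cells. Neither gene overlapped between the 2 cell types. Sfrp4 in smooth muscle cells was 8.24%, 5.77%, 7.90% and 7.11% of its fibroblast level, below the 9.52%, 10.97%, 8.73% and 8.59% at which the fibroblast marker list stood in the same cells. For Sfrp2 these shares were 19.1%, 48.2%, 35.4% and 21.2%, above the marker list in every library.

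Among the gated cell types, Sfrp1 was highest in endothelial cells, at 503, 489, 1503 and 1017 CPM (192, 125, 257 and 162 UMIs). Fibroblasts had 223, 315, 312 and 220, and smooth muscle cells 15.6, 13.7, 14.0 and 10.2. The endothelial values lay above all fibroblast values, and a Sfrp1 UMI was present in 17.6%, 34.2%, 39.3% and 54.5% of endothelial cells. After thinning, which left out 38 endothelial cells, the share was 32.3% of 124 cells, against 1.14% of macrophages, with median depths of 4797 and 8877 UMIs before it (the unthinned shares were 30.2% and 3.17%). By edgeR's quasi-likelihood test, Sfrp1 was higher in endothelial cells than in fibroblasts by 1.37 on the log2 scale (SE 0.27, adjusted p = 0.000197), a contrast also added after the levels had been seen. The level of Sfrp1 in endothelial cells was 225%, 155%, 483% and 463% of that in fibroblasts, whereas the fibroblast marker list in the same cells was at 7.42%, 4.07%, 4.86% and 11.1%. Of the 9 members tested in this contrast, Sfrp1 was the 1 called higher and 7 were called lower, against 14.5% of all genes called higher and 18.7% lower. Dkk2 was uneven in endothelial cells, at 2.62, 106, 23.4 and 69.0 CPM from 1, 27, 4 and 11 UMIs, and overlapped the fibroblast values of 6.098, 7.32, 3.60 and 9.01.

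Wif1 and Dkk3 were shared with smooth muscle cells. Wif1 was at 54.5, 38.2, 39.6 and 58.2 CPM in smooth muscle cells, and at 44.3, 0.859, 0.144 and 2.65 in fibroblasts. Its smooth muscle values were close to each other, while its fibroblast value was high in the normocholesterolemic Nrf2flox/flox library and near 0 in the other 3. Dkk3 was at 165, 224, 155 and 196 in smooth muscle cells and at 181, 109, 137 and 177 in fibroblasts, and these ranges overlapped. Smooth muscle cells, 2357 of the 14148 cells, held 40.7% of all Wif1 UMIs and 26.6% of all Dkk3 UMIs. The difference of Dkk3 between fibroblasts and smooth muscle cells was −0.33 on the log2 scale (adjusted p = 0.225, edgeR).

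**Figure D1:**
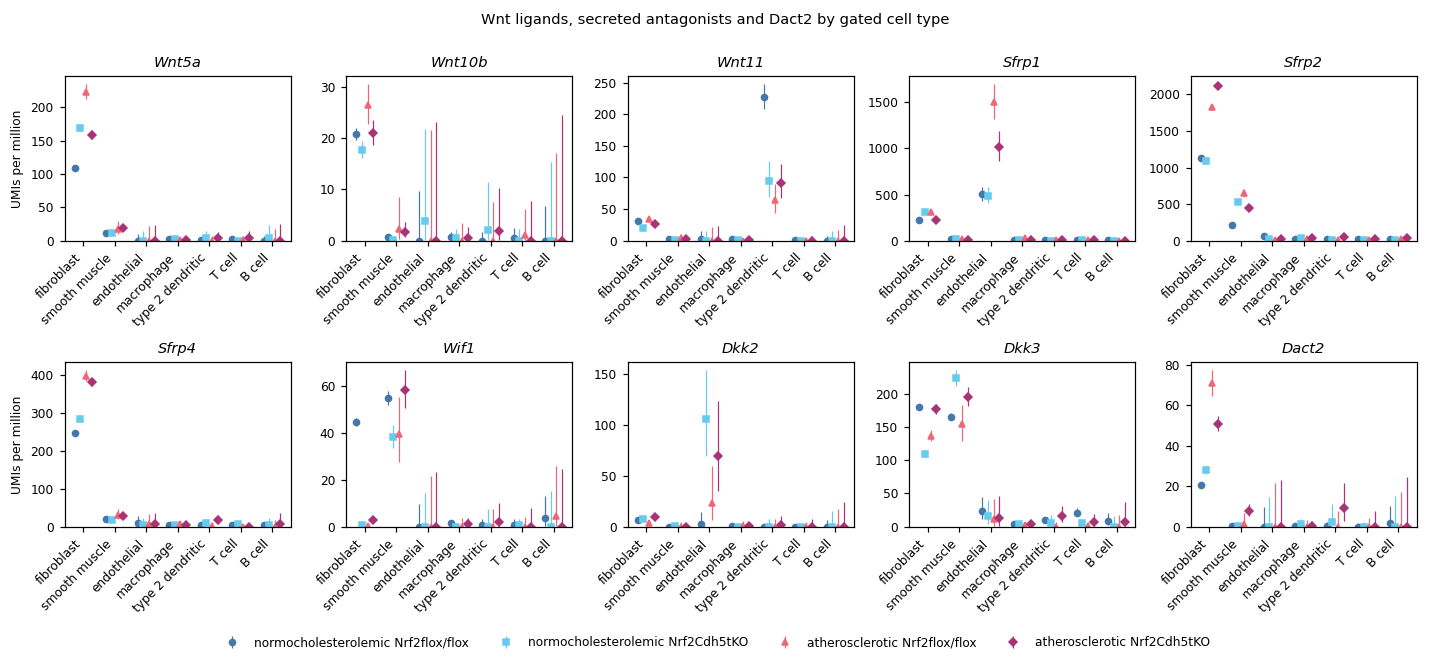
Levels of the 10 genes in CPM (vertical axes, one panel per gene) in the gated cell types (horizontal axes), with one point per library and its 95% counting interval. Wnt11 in type 2 dendritic cells (63.5 to 227) and Sfrp1 in endothelial cells (489 to 1503) lie above the fibroblast points, and Wif1 in fibroblasts is high in 1 library only (44.3 against 0.144 to 2.65).

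Dact2, which binds Dishevelled inside the cell, was at 20.4, 27.8, 70.8 and 50.7 CPM in fibroblasts, which held 96.7% of its UMIs. In the fit of fibroblasts against smooth muscle cells, 9 members could be tested, Dkk2 being too low. Of these, 7 were higher in fibroblasts, 1 (Wif1) was lower and 1 (Dkk3) was not called, against 24.8% of the 10916 genes called higher and 20.8% lower. The differences on the log2 scale were 4.64 for Wnt10b, 4.41 for Dact2, 4.16 for Sfrp1, 3.81 for Sfrp4, 3.70 for Wnt11, 3.45 for Wnt5a and 1.71 for Sfrp2, and −3.42 for Wif1 (SE 0.55, adjusted p = 1.2e-05). The Wif1 value depends on the libraries with nearly no Wif1 in fibroblasts. In the normocholesterolemic Nrf2flox/flox library the levels were close, at 44.3 CPM in fibroblasts and 54.5 in smooth muscle cells. Over 12 alternatives the Wif1 value ran from −5.205 to −1.89, and the call was kept. The median over the 9 members was 3.70, against 0.03 over all genes. With library as a term, p-values of this fit measure how far the difference between the cell types varied over the 4 libraries. Each library is 1 pool of mice from a different group, so they measure no spread between replicates.

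Within the fibroblasts, as split by the gene with most UMIs, the Pi16 group carried Wnt10b and Dact2 almost alone. Wnt10b was at 25.6, 19.6, 30.3 and 26.6 CPM in Pi16 fibroblasts, and at most 4.49 in any other group of any library. Dact2 was at 25.1, 30.8, 82.1 and 64.7 in Pi16 fibroblasts, and at most 7.11 elsewhere in the fibroblasts of any library. The Pi16 values of both genes lay above those of all other groups with no overlap. Of the UMIs in all cells that passed the filters, Pi16 fibroblasts held 95.3% for Wnt10b and 95.3% for Dact2. Pi16 fibroblasts were also the largest group, with 6180 of the 14148 cells, and these shares depend in part on that size. In the fit against the mean of the other groups (edgeR, library as a term), Dact2 was higher by 4.13 on the log2 scale (SE 0.19, adjusted p = 1.6e-12) and Wnt10b by 3.98 (SE 0.24, adjusted p = 1.05e-10). Both calls were kept under all 15 alternatives run, with adjusted p of at most 1.43e-08 for Dact2 and 1.91e-06 for Wnt10b. When the split used UMIs relative to each gene's mean, both genes were also called higher in Penk fibroblasts. The values there were 1.10 for Wnt10b (adjusted p = 0.0007, edgeR) and 0.73 for Dact2 (adjusted p = 0.0463, edgeR). The highest Wnt10b share by library was 25.6% of Pi16 fibroblasts with a UMI in the atherosclerotic Nrf2flox/flox library, against 18.8%, 19.3% and 19.1% in the others. After thinning, which left out 368 of the Pi16 fibroblasts, these shares were 8.68% against 5.15%, 4.63% and 6.44%, and macrophages were at 0.0873% (0.464% unthinned). Group membership rests on UMIs of the split genes in the same cells, and the groups of a library share that library, so the fit describes these 4 libraries. The members and contrasts were also chosen with earlier results of these data known. The p-values and alternatives are therefore no independent evidence that Dact2 or Wnt10b belongs to the Pi16 group.

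Pi16 fibroblasts had 4 members called higher, 1 called lower and 5 not called, against 6.11% of the 8796 genes tested called higher and 4.38% lower. Besides Wnt10b and Dact2, Sfrp4 was called higher by 1.23 (SE 0.29, adjusted p = 0.00585) and Wnt11 by 0.59 (SE 0.14, adjusted p = 0.00706). Sfrp4 was at 273, 283, 435 and 428 CPM in these cells, but its levels of 165, 678, 247 and 228 in Comp fibroblasts overlapped them. Wnt11 was at 33.0, 21.1, 35.3 and 28.6 in Pi16 fibroblasts, and its Penk levels of 29.4, 10.2, 40.0 and 39.1 overlapped those. Its Cilp levels of 27.5, 22.2, 34.2 and 28.5 were close to the Pi16 levels in every library. Dkk3 was called lower by 0.88 on the log2 scale (−0.88, SE 0.25, adjusted p = 0.0218), with 133, 103, 116 and 130 CPM. These 3 calls were lost in some fits. Without the normocholesterolemic Nrf2flox/flox library the adjusted p was 0.287 for Wnt11 and 0.105 for Dkk3, and without the atherosclerotic Nrf2Cdh5tKO library it was 0.103 for Dkk3 and 0.0644 for Sfrp4. Over all alternatives the adjusted p (edgeR or DESeq2) ran from 5.31e-05 to 0.287 for Wnt11, from 8.96e-10 to 0.136 for Dkk3 and from 1.68e-29 to 0.351 for Sfrp4. The members not called were Sfrp1 (−0.64), Wif1 (−1.22), Dkk2 (−0.37), Wnt5a (−0.20) and Sfrp2 (0.40). The median over the 10 members was 0.10, against 0.00 over all genes.

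Comp fibroblasts, named for a matrix protein of cartilage and tendon, had Sfrp2, Dkk3 and Wnt5a called higher under every alternative. Sfrp2 was at 2884, 2821, 2932 and 3934 CPM in them, against 1067, 1051, 1755 and 1855 in Pi16 fibroblasts and 182, 129, 160 and 434 in Penk fibroblasts. The 3 groups did not overlap, but the fibroblasts with no leading gene, at 1382, 1019, 2913 and 3122 CPM of Sfrp2, overlapped the Comp values. In the atherosclerotic Nrf2flox/flox library these cells and the Comp fibroblasts were close. Dkk3 was at 530, 287, 319 and 411 in Comp fibroblasts, above every Pi16 and Penk value. Its level in the fibroblasts with no leading gene, 442, 168, 295 and 324, overlapped the Comp values. The Dkk3 values of the small Cilp group, 446, 150, 79.8 and 28.5, also overlapped that range, though each was below the Comp value of its library. Wnt5a was at 176, 343, 308 and 247 in Comp fibroblasts, against 106, 161, 216 and 138 in Pi16 fibroblasts. The Comp value of Wnt5a was the higher of the pair in each library, though the ranges overlapped. The fitted differences were 1.91 for Sfrp2 (SE 0.22, adjusted p = 4.98e-06), 1.20 for Dkk3 (SE 0.23, adjusted p = 0.00128) and 0.83 for Wnt5a (SE 0.14, adjusted p = 0.000501). All 3 calls held under the 15 alternatives run for each, with adjusted p of at most 0.000441, 0.0326 and 0.0457.

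Comp fibroblasts had 5 members called higher, 4 lower and 1 not called, against 4.64% of genes called higher and 3.04% lower. The other calls were less firm. Dkk2 was lower by 4.65 on the log2 scale (−4.65, SE 1.02, adjusted p = 0.00464), with between 0 and 0.662 CPM in any library, from 3 UMIs in all, so that the size of the fitted value depends on the prior count and is no bound, and its adjusted p was 0.0675 without the atherosclerotic Nrf2Cdh5tKO library. Sfrp1 was lower by 1.16 on the log2 scale (−1.16, SE 0.28, adjusted p = 0.0105), at 93.0, 134, 496 and 133 CPM. Over all libraries its Comp level (140) was close to that of fibroblasts with no leading gene (133). In the atherosclerotic Nrf2flox/flox library the Comp value lay above those of Pi16 fibroblasts (269) and of cells with no leading gene (276). Pi16 fibroblasts had more Sfrp1 than Comp fibroblasts in the other libraries. Wnt11 at 12.6, 14.7, 22.5 and 8.50 (−0.89, SE 0.22, adjusted p = 0.0116) and Dact2 at 1.02 over all libraries (−2.45, SE 0.62, adjusted p = 0.0131) were also called lower. Without the normocholesterolemic Nrf2flox/flox library the adjusted p was 0.140 for Sfrp1, 0.294 for Wnt11 and 0.140 for Dact2. Without the normocholesterolemic Nrf2Cdh5tKO library it was 0.0815 for Sfrp1 and 0.159 for Dact2, and without the atherosclerotic Nrf2Cdh5tKO library it was 0.109 for Wnt11. Sfrp4 was called higher by 1.01 (SE 0.31, adjusted p = 0.0451), but the value fell to 0.34 (adjusted p = 0.697) without the normocholesterolemic Nrf2Cdh5tKO library, whose Comp fibroblasts alone reached 678 CPM. Without the atherosclerotic Nrf2Cdh5tKO library the adjusted p of Sfrp4 was 0.0725, and it was lost in 7 of 15 alternatives, in which p reached 0.988. Over the alternatives the highest adjusted p was 0.232 for Sfrp1, 0.294 for Wnt11 and 0.184 for Dact2. Wif1 was called higher by 1.48 (SE 0.35, adjusted p = 0.00839) on UMIs of almost 1 library, at 124, 0, 0 and 0.654 CPM, and over 13 alternatives its value ran from −0.71 to 1.97 and its adjusted p up to 0.894. Wnt10b was not called (−1.74, adjusted p = 0.209).

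**Figure D2:**
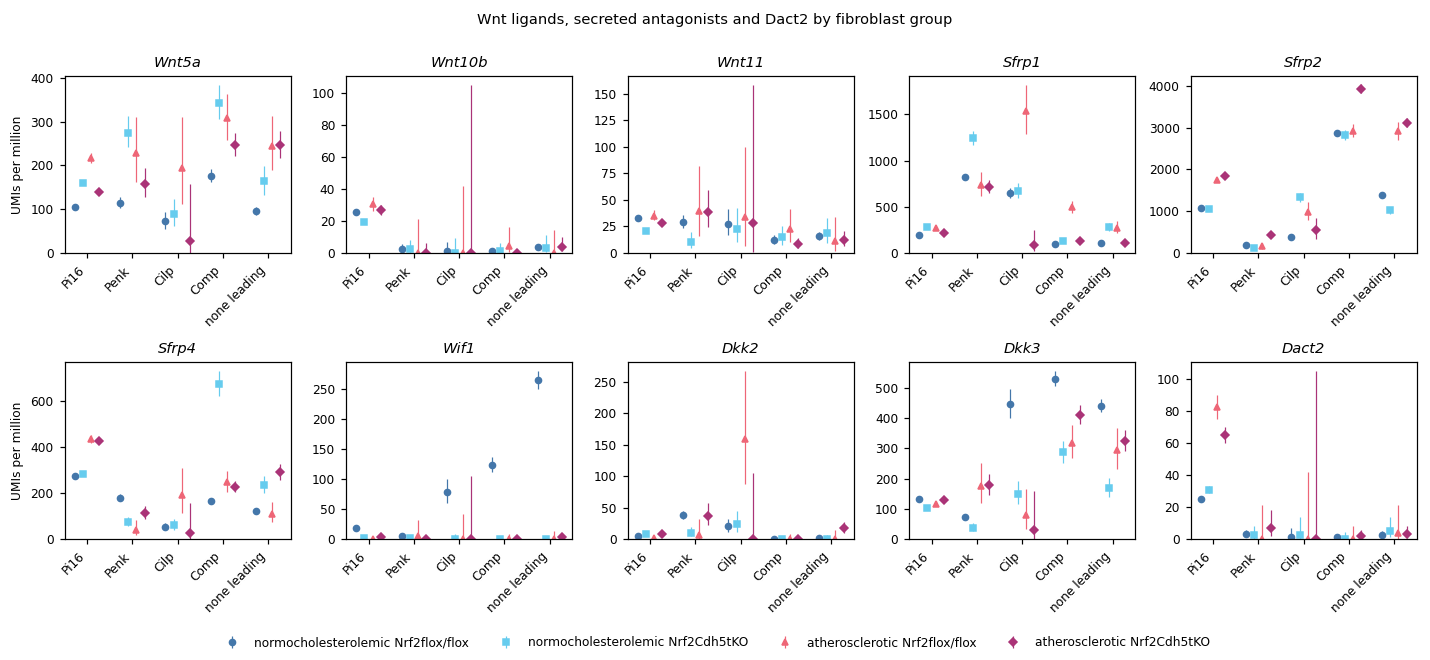
Levels of the 10 genes in CPM (vertical axes, one panel per gene) in the fibroblast groups (horizontal axes), with one point per library and its 95% counting interval. Wnt10b and Dact2 stand up in the Pi16 group only (19.6 to 30.3 and 25.1 to 82.1), Sfrp2 is highest in the Comp group (2821 to 3934) and lowest in the Penk group (129 to 434).

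Penk fibroblasts, whose split gene encodes the proenkephalin precursor, had much Sfrp1 and little Sfrp2. Sfrp1 was at 820, 1241, 737 and 713 CPM, above the 192, 283, 269 and 218 of Pi16 fibroblasts in every library, and 85.0% of Penk fibroblasts had a Sfrp1 UMI, or 66.2% after thinning. The fitted difference was 1.78 for Sfrp1 (SE 0.23, adjusted p = 1.18e-05) and −2.88 for Sfrp2 (SE 0.30, adjusted p = 5.33e-07). Both calls were kept under all 15 alternatives, with adjusted p of at most 0.00289 and 0.000144. Penk fibroblasts had 2 members called higher, 3 lower and 5 not called, against 6.26% of genes called higher and 5.72% lower. Dkk2 was at 37.5, 10.2, 5.71 and 37.3 in Penk fibroblasts and at 4.27, 7.38, 1.68 and 7.96 in Pi16 fibroblasts, and was called higher by 2.62 (SE 0.52, adjusted p = 0.0012). The Penk values came from 120, 9, 1 and 21 UMIs, so that of the atherosclerotic Nrf2flox/flox library (1 UMI in 13 cells, 95% interval 0.145 to 31.8 CPM) lay under the depth limit of 17.1 CPM, and no order can be read there. Without the normocholesterolemic Nrf2flox/flox library the difference was 1.70 (adjusted p = 0.306), the highest p over its alternatives. Dkk3 was called lower by 1.33 on the log2 scale (−1.33, SE 0.30, adjusted p = 0.00406), from 72.5, 37.5, 177 and 178 CPM. The Dkk3 values of the atherosclerotic libraries were above the Pi16 values of the same libraries, and without the normocholesterolemic Nrf2flox/flox library the adjusted p was 0.154. Wif1 was called lower (−3.93, SE 0.60, adjusted p = 7.12e-05), a call that reached an adjusted p of 0.989 over 13 alternatives.

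Cilp fibroblasts, named for another cartilage matrix protein, were the smallest group and had 2 members called higher, 1 lower and 7 not called, against 1.88% of genes called higher and 1.51% lower. Sfrp1 was at 645, 671, 1539 and 85.4 CPM, of which the last came from 6 cells. It was called higher by 1.25 (SE 0.27, adjusted p = 0.00897), with an adjusted p of 0.140 without the normocholesterolemic Nrf2flox/flox library. Dkk2, at 20.01, 24.7, 160 and 0, was called higher by 3.06 (SE 0.74, adjusted p = 0.0211), with 2.26 and an adjusted p of 0.107 without the atherosclerotic Nrf2flox/flox library. Wnt5a, at 72.5, 88.8, 194 and 28.5, was called lower by 0.99 on the log2 scale (−0.99, SE 0.22, adjusted p = 0.011), with an adjusted p of 0.055 without the normocholesterolemic Nrf2flox/flox library and 0.117 without the normocholesterolemic Nrf2Cdh5tKO library. None of these calls passed all alternatives.

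**Figure D3:**
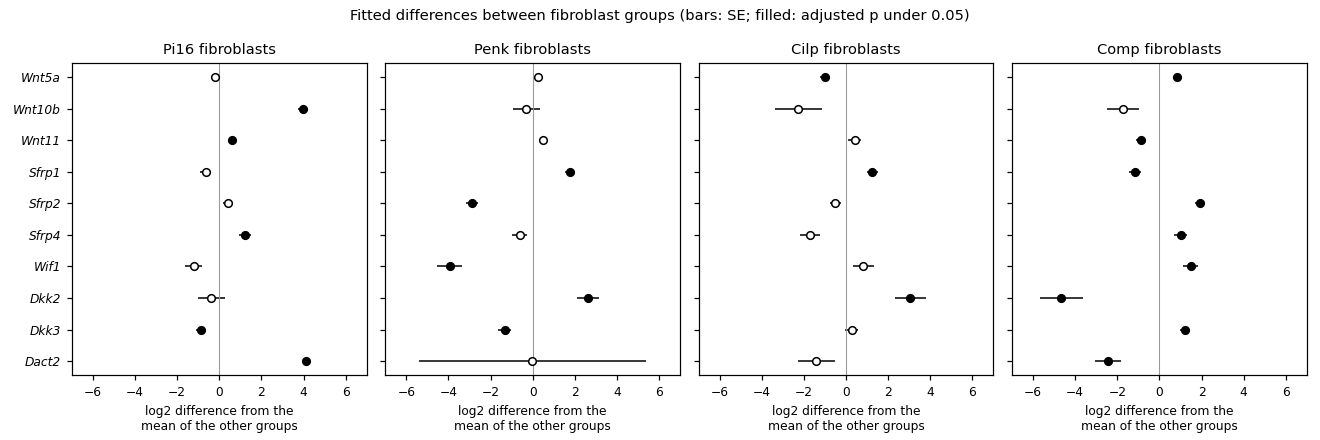
Fitted log2 difference (horizontal axes) of each gene (vertical axis) between a fibroblast group and the mean of the other groups, one panel per group, with bars for the SE and filled points for adjusted p under 0.05. Dact2 (4.13) and Wnt10b (3.98) lie far to the right in the Pi16 panel, and Sfrp2 lies to the right in the Comp panel (1.91) and to the left in the Penk panel (−2.88).

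Over the 20 sums of UMIs by fibroblast group and library, Wnt10b and Dact2 had the highest likeness of any pair of members (Pearson r = 0.80 across sums that share libraries and cells). Sfrp1 went with Dkk2 (r = 0.66) and against Sfrp2 (r = −0.63). Among 9886 genes, those most like Dact2 were Akr1c18 (0.92), Ecscr (0.92) and Krtdap (0.89), and those most like Wnt10b were Ppp1r14b (0.91), Gap43 (0.89) and Chst1 (0.89). For Sfrp1 they were Apbb1ip (0.89), Gpx3 (0.85) and Abca6 (0.83), for Sfrp2 Pex5l (0.87), Timp3 (0.86) and Fhl1 (0.84), and for Wnt5a Tmcc3 (0.91) and N4bp2l1 (0.90).

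Sfrp2 and Dact2 were higher in fibroblasts of the atherosclerotic library than of the normocholesterolemic library with the same genotype label, in both such pairs. Sfrp2 went from 1131 to 1824 CPM between the Nrf2flox/flox libraries, a log2 ratio of 0.69 (95% interval 0.66 to 0.72), and from 1083 to 2117 between the Nrf2Cdh5tKO libraries, 0.97 (0.94 to 0.99). Dact2 went from 20.4 to 70.8, a log2 ratio of 1.80 (1.64 to 1.95), and from 27.8 to 50.7, a ratio of 0.87 (0.72 to 1.02). These were the members past 1.5-fold in the same direction in both pairs, as were 1.63% of 12199 genes on the higher side. For Sfrp2 this did not hold for every measure. TMM scaling put its first ratio at the edge of 1.5-fold, and its thinned shares of cells, given below, differed by less than 1.5-fold in both pairs. With no replicate libraries these are values of 4 pools, not tests. The thinned share of fibroblasts with a Sfrp2 UMI was 42.9%, 43.6%, 59.2% and 64.0%, and in macrophages it was 7.53%, 7.04%, 5.00% and 10.3%. Unthinned, the shares were 60.0%, 63.3%, 73.5% and 74.4%, with 21.9%, 14.6%, 13.6% and 26.4% in macrophages.

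In a sum over fibroblasts, a change in the mix of fibroblasts and a change in RNA per cell cannot be told apart, so the ratios were also taken within groups. Comp fibroblasts, which carry most Sfrp2 per UMI, made up 5.59%, 3.32%, 6.48% and 11.5% of fibroblasts, and Pi16 fibroblasts 75.0%, 87.0%, 79.8% and 70.0%. Within Pi16 fibroblasts the regimen ratios for Sfrp2 were 0.72 and 0.82, for Sfrp4 0.67 and 0.60, and for Dact2 1.71 (1.55 to 1.86) and 1.07 (0.92 to 1.22). All 3 were past 1.5-fold in both pairs, as were 1.56% of 11908 genes. Sfrp4 was near the limit in both. The TMM shift of the Nrf2flox/flox pair over all fibroblasts (−0.10) would take its first ratio below 1.5-fold. The thinned share of Pi16 fibroblasts with a Dact2 UMI was 4.54%, 6.07%, 14.5% and 13.1%, and the unthinned share was 14.8%, 18.3%, 29.4% and 24.4%. Macrophages were at 0.262% after thinning and 0.309% before it. Within Comp fibroblasts the Sfrp2 ratios were 0.02 and 0.48, below 1.5-fold. In fibroblasts with no leading gene they were 1.075 and 1.61. In the small Penk (−0.185 and 1.74) and Cilp groups (1.395 and −1.30) the signs differed between the pairs.

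In fibroblasts the remaining members did not go the same way in both pairs, or stayed within 1.5-fold in one of them. Sfrp4 had a ratio of 0.69 (0.63 to 0.75) between the Nrf2flox/flox libraries and of 0.42 (0.37 to 0.47) between the Nrf2Cdh5tKO libraries. Wnt5a had a ratio of 1.04 (0.95 to 1.12) in the first pair and −0.09 (−0.17 to −0.02) in the second. Dkk3 had −0.40 (−0.49 to −0.30) and 0.70 (0.62 to 0.77), and Sfrp1 0.48 (0.41 to 0.55) and −0.52 (−0.58 to −0.46). The ratios of Wnt10b (0.34 and 0.24) and Wnt11 (0.16 and 0.32) were small. Dkk2 had −0.76 (−1.41 to −0.17) from 332 and 25 UMIs, and 0.30 (−0.04 to 0.63). In the Nrf2flox/flox pair 4 members were past 1.5-fold on the higher side (Sfrp2, Sfrp4, Wnt5a and Dact2) and 2 on the lower (Wif1 and Dkk2), where 9.72% of 12962 genes were past it on the higher and 9.04% on the lower side. In the Nrf2Cdh5tKO pair 4 were higher (Sfrp2, Wif1, Dkk3 and Dact2) and 0 lower, where the shares were 5.61% and 6.8% of 12258 genes. The median over the members was 0.41 and 0.37, against 0.06 and −0.05 over all genes. TMM scaling lowered every Nrf2flox/flox regimen ratio by 0.10, which put Sfrp2 at 0.59 and Sfrp4 at 0.59, at the edge of 1.5-fold, and Wnt5a at 0.93.

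In smooth muscle cells, Sfrp2 had regimen ratios of 1.58 and −0.22, and 20.1% of genes were past 1.5-fold on the higher side of the first pair. Only 77 smooth muscle cells came from the atherosclerotic Nrf2flox/flox library. Sfrp4 (0.63 and 0.72) and Wnt5a (0.67 and 0.64) were past 1.5-fold in both pairs of smooth muscle libraries, as were 1.44% of genes, on as few as 15 to 27 UMIs in a library, and both stood near or below the level of the fibroblast marker list in these cells. In endothelial cells, the cell type where it was highest, Sfrp1 had regimen ratios of 1.58 (1.31 to 1.86) and 1.06 (0.71 to 1.41). These were past 1.5-fold in both pairs, as were 4.84% of the 1342 genes with enough UMIs. The libraries held only 74, 38, 28 and 22 endothelial cells, and the intervals leave out the spread between cells. Sfrp1 was the 1 member that could be compared there.

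**Figure D4:**
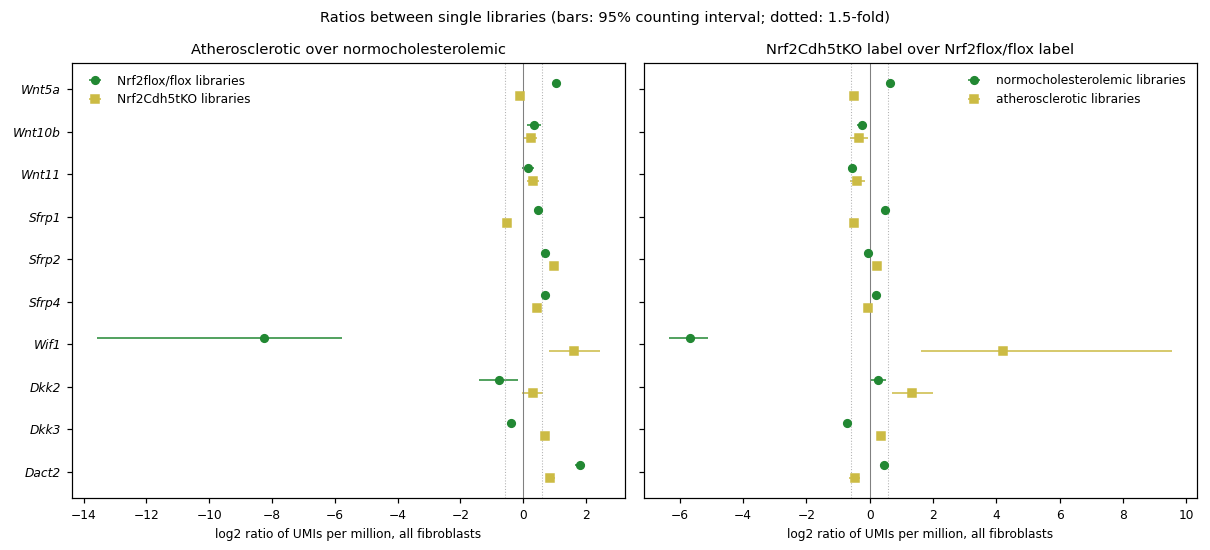
Log2 ratios of CPM between single libraries over all fibroblasts (horizontal axes) for each gene (vertical axis), with 95% counting intervals and dotted lines at 1.5-fold. The left panel gives atherosclerotic over normocholesterolemic libraries, with Dact2 (1.80 and 0.87) and Sfrp2 (0.69 and 0.97) to the right in both pairs, and the right panel gives the Nrf2Cdh5tKO label over the Nrf2flox/flox label, with no gene past 1.5-fold in the same direction in both.

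Genotype labels were compared mainly in fibroblasts, which are not among the cells named above as losing exon 5. In endothelial cells, which are, Sfrp1 was the 1 member that could be compared. Its log2 ratio of the Nrf2Cdh5tKO over the Nrf2flox/flox label was −0.04 in the normocholesterolemic libraries (125 against 192 UMIs). In the atherosclerotic libraries it was −0.56 (−0.86 to −0.28, 162 against 257 UMIs), and both ratios were within 1.5-fold. In fibroblasts of the normocholesterolemic libraries Wnt5a was higher with the Nrf2Cdh5tKO label (log2 ratio 0.64) and Dkk3 (−0.72) and Wif1 (−5.69, −6.35 to −5.10) were lower, where 6.94% of 13352 genes were past 1.5-fold on the higher and 6.61% on the lower side. In the atherosclerotic libraries Dkk2 was higher (1.32, 0.70 to 2.00), where 3.43% of 11268 genes were past 1.5-fold on the higher and 2.94% on the lower side, and the ratios of Wnt5a (−0.49) and Dkk3 (0.37) had the other sign. Wif1 also had the other sign there, at 4.20 (1.63 to 9.54), from 37 UMIs against 1, under the 50 UMIs needed for a call. Sfrp1 (0.50 and −0.50) and Dact2 (0.45 and −0.48) also had opposite signs. Over all fibroblasts no member was past 1.5-fold in the same direction in both pairs. Of 11261 genes, 0.364% were so on the higher and 0.231% on the lower side. Within Pi16 fibroblasts the level of Dkk2 was higher with the Nrf2Cdh5tKO label in both pairs. It went from 4.27 to 7.38 CPM (184 and 177 UMIs) in the normocholesterolemic pair. In the atherosclerotic pair it went from 1.68 to 7.96 CPM (10 and 86 UMIs), a log2 ratio of 2.25 (1.30 to 3.36). The thinned shares of Pi16 fibroblasts with a Dkk2 UMI were 0.710%, 0.795%, 0.263% and 1.61% (23, 11, 1 and 13 cells). By that measure the normocholesterolemic pair was nearly level. The share of all genes past 1.5-fold in both pairs is not given for Pi16 fibroblasts, so these Dkk2 values are not read as a call. The normocholesterolemic Nrf2flox/flox library and the other libraries each enter both a regimen pair and a genotype pair, so these ratios are not independent of each other.

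The Wif1 difference came from few cells of 1 library. Of the fibroblasts, 156 of 4597 had 2 or more Wif1 UMIs in the normocholesterolemic Nrf2flox/flox library (3.39%, exact 95% binomial interval 2.89 to 3.96%), against 2 of 1657 (0.121%), 0 of 494 (upper bound 0.744%) and 7 of 1285 (0.545%). The 156 cells held 2300 of the 2414 Wif1 UMIs of their library's fibroblasts. They were found in all groups but unevenly for the sizes of the groups. They were 66 of the 3446 Pi16 fibroblasts, 54 of the 562 with no leading gene and 25 of the 257 Comp fibroblasts. They were also 10 of the 68 Cilp and 1 of the 264 Penk fibroblasts, so their share was lowest in the Penk and Pi16 groups. Genes described next were chosen after their values were seen, and no test was made. Against the other fibroblasts of the library, the 156 cells had 697 against 15.7 CPM of Tbx20 and 71.4 against 4.13 of Gata4, both transcription factors known from the heart. They had 461 against 28.6 of Meox1 and 73.1 against 1.57 of Scx, transcription factors of fibroblast activation and of tendon. Dkk3 was at 1233 against 133, Rspo3, which strengthens Wnt signalling at the receptor, at 226 against 14.6, and the ligand Wnt16 at 46.3 against 0.307. Sfrp2 (369 against 1165), Sfrp1 (106 against 229) and Pi16 (710 against 3218) were lower in them. The cardiomyocyte genes Myl7, Myh6 and Nppa were at 0 UMIs in the 156 cells. Of the other cardiac muscle genes looked at, Tnnt2 was at 83.7 against 5.09 CPM, with a UMI in 23.1% of the 156 cells, and Actc1 at 1.27 against 1.07 CPM, from 3 UMIs in the 156 cells.

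Wif1 and these transcription factors did not always go together across libraries. Scx over all fibroblasts was highest in the same library as Wif1, at 4.66, 0.560, 0.865 and 0.858 CPM. Meox1 was at 47.3, 134, 9.22 and 15.2 CPM. Tbx20 over all fibroblasts was at 45.2, 40.8, 0.865 and 1.72 CPM, and Gata4 at 7.03, 8.96, 0 and 0.429. The normocholesterolemic Nrf2Cdh5tKO library thus had as much Tbx20 as the Nrf2flox/flox library but nearly no Wif1. Nppa and Myl7 stood at 10.3 and 5.49 CPM in its fibroblasts, against 0 to 0.0184 CPM in those of the other libraries. Cells gated as cardiomyocytes numbered 0, 10, 0 and 0. How much heart or aortic root tissue each pool held was not otherwise measured, and its part in the Wif1 difference was not tested. Without the Wif1 fibroblasts the Nrf2flox/flox regimen ratio of Dkk3 went from −0.40 to 0.04 and its normocholesterolemic genotype ratio from −0.72 to −0.29.

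**Figure D5:**
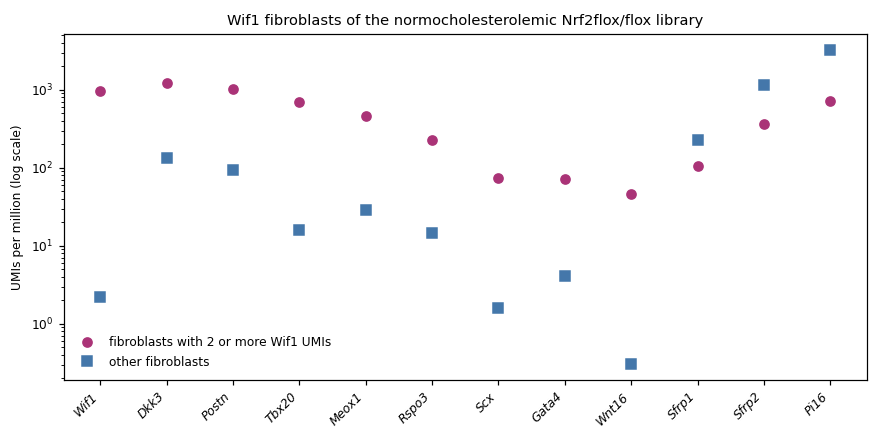
CPM (vertical axis, log scale) of selected genes (horizontal axis) in the 156 fibroblasts with 2 or more Wif1 UMIs (circles) and the other fibroblasts (squares) of the normocholesterolemic Nrf2flox/flox library. Tbx20 (697 against 15.7) and Dkk3 (1233 against 133) are higher in the Wif1 fibroblasts, and Sfrp2 (369 against 1165) is lower.

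Other genes of the pathway were counted by list. Of 16 other Wnt ligands 3 could be tested between fibroblast groups. Wnt2 was 19.4 to 27.0 CPM in Pi16 fibroblasts and 0 to 1.14 in Penk fibroblasts, and was called higher in the former (3.25, SE 0.25, adjusted p = 3.38e-09) and lower in the latter (−3.93, SE 0.75, adjusted p = 0.000777). Wnt9a was also called higher in Pi16 fibroblasts (0.63), and Wnt5b lower in Comp fibroblasts (−1.05). Against smooth muscle cells, Wnt2 (4.48) and Wnt9a (1.22) were higher in fibroblasts and Wnt16 was lower (−5.29).

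Of 10 other secreted antagonists 2 could be tested between groups, and both Frzb (1.61), another Frizzled-related protein, and Sost (2.13), the Lrp-binding antagonist sclerostin, were called higher in Comp fibroblasts, as were 4.64% of 8796 genes. Frzb was lower in Penk fibroblasts (−3.11) and Sost in Pi16 fibroblasts (−1.08). In smooth muscle cells Sost was at 440 to 787 CPM, against 7.65 to 17.0 in fibroblasts, and the summed smooth muscle markers in fibroblasts ranged from 278 to 863 CPM. The part of free or mixed-in smooth muscle RNA in the Comp value of Sost was not tested.

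Among 18 receptors and coreceptors, 11 could be tested between groups. The receptor Fzd4 was higher in Penk (1.03) and lower in Cilp fibroblasts (−0.95), and Fzd2 was lower in Penk (−0.95) and higher in Comp fibroblasts (0.75). Ror1, a receptor of Wnt5a, was higher in Comp fibroblasts (1.12, SE 0.20, adjusted p = 0.000755), at 27.1 to 37.7 CPM against 12.7 to 18.7 in Pi16 fibroblasts. Lrp6 was higher in Cilp fibroblasts (0.62), and Fzd7 (−0.50) and Lrp5 (−0.88) were lower in Pi16 fibroblasts. Against smooth muscle cells, 4 of 12 tested receptors were higher in fibroblasts and 7 lower, where 24.8% of all genes were called higher and 20.8% lower.

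In the R-spondin axis of 9 genes, 3 could be tested between groups. Rspo3 was lower in Pi16 fibroblasts (−2.56, SE 0.23, adjusted p = 3.56e-08), at 6.17 to 14.0 CPM, and higher in Penk fibroblasts (0.91), at 40.0 to 110 CPM. Rspo1, a related secreted protein, was higher in Penk fibroblasts (1.41) and lower in Comp fibroblasts (−2.83). The receptor Lgr6 was at 111 to 168 CPM in smooth muscle cells and at 1.01 to 2.53 in fibroblasts. Of the 2 Wnt secretion genes Wls was tested, and it was lower in Penk fibroblasts (−0.49).

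Dact1, a relative of Dact2 in the 7-gene list of Dishevelled-binding proteins, was higher in Pi16 fibroblasts by 0.59 (SE 0.14, adjusted p = 0.00614), while Dact3 was lower (−0.63) there and higher in Comp fibroblasts (0.56). Of 8 beta-catenin target genes 2 could be tested between fibroblast groups and neither Ccnd1 nor Myc was called in any group by edgeR or DESeq2, giving 0 calls of 2 genes in each contrast. At an unadjusted p under 0.05, both tools had 1 of the 2 genes in the Penk, Cilp and Comp contrasts and 0 in the Pi16 contrast. Against smooth muscle cells 5 could be tested, of which Ccnd1 (2.84), Myc (2.26) and Axin2 (0.84) were higher in fibroblasts, as were 24.8% of all genes. Between libraries, 43 genes of the lists had enough UMIs in fibroblasts of both regimen pairs. Of these, 3 were past 1.5-fold on the lower side of both pairs, namely Rspo1 (−1.22 and −1.03), Wnt4 (−0.99 and −0.72) and the coreceptor Ptk7 (71 and 5 UMIs in the first pair, 83 and 3 in the second). The Wnt5a receptor Ror2 (0.90 and 0.59) was past it on the higher side of both. Over all genes, 2.14% of 12199 were lower and 1.63% higher in both pairs. Sost went opposite ways (−0.98 and 1.15), and Dact1 had regimen ratios of 0.91 and −0.19 and genotype ratios of 0.72 and −0.38.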

How the data were processed

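The authors deposited unnormalised UMI counts per gene and cell barcode for each 10x Genomics 3′ library (about 12000 cells loaded), with Cell Ranger 6.1.2 and mm10 named in the submitters' processing notes. Barcodes were kept if they held between 200 and 6000 genes and a mitochondrial share of 15% or less. Cells were assigned to a type by marker score (at least 3 markers, score of at least 0.5, lead of 0.3 over the next type, the lead being set after the data were seen). Fibroblasts joined the group of the split gene with most UMIs (2 or more, with 87 tied cells left in the group without a leading gene). Doublets were left in, and Scrublet calls (190, 64, 10 and 42 cells) were removed as an alternative.

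UMIs were summed per group of cells and library and tested across all genes with edgeR 4.0.16 (quasi-likelihood test, TMM factors, filter on low counts, library as a term, Benjamini-Hochberg adjustment, threshold 0.05) in R 4.3.3. A fibroblast group was set against the mean of the other groups. DESeq2 1.42.0, other filters and scalings, other splits, and leaving out each library were alternatives. Scripts were tested on simulated data. Between libraries, the log2 ratio of CPM was given with its exact 95% interval for counting error, and called means past 1.5-fold among genes with 50 or more UMIs in the pair. Sums and intervals were made with scipy 1.17.1, pandas 2.3.3, scanpy 1.11.5 and numpy 2.4.6. Library totals of 98754487, 43717402, 12276546 and 24184211 UMIs set the precision. The atherosclerotic Nrf2flox/flox library was the shallowest, and its small groups carry the widest intervals.

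Named genes were all 10 members and the genes of 7 pathway lists that passed a test in a fibroblast group or had the highest level in their list, with the 3 genes most like a member of 500 or more UMIs. Members, lists and contrasts were chosen with earlier results of these data known. Gene positions came from GENCODE M21 and upstream sequences from RefSeq. A further agent that both atherosclerotic groups received is not reported here.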

Additional observations from a re-analysis of the deposited data

Results flagged for a closer look

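For 3 genes, the ratios between libraries went in opposite directions in the pairs of the same kind, with at least 1 ratio past 1.5-fold and counting intervals that left out 0. The differences between the pairs were not tested, since each pair is 1 library against 1. Wif1 in fibroblasts had a regimen log2 ratio of −8.265 between the Nrf2flox/flox libraries (95% interval −13.57 to −5.79, 1 UMI against 2414) and 1.623 between the Nrf2Cdh5tKO libraries. The corresponding values of Dkk3 were −0.397 and 0.695, and those of Wnt5a were 1.036 and −0.094. Without the fibroblasts that held 2 or more Wif1 UMIs, the first Dkk3 ratio was 0.04, no longer opposite to the second.

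For the genotype labels, Dkk3 had a ratio of −0.724 (−0.29 without the Wif1 fibroblasts) in the normocholesterolemic and 0.368 in the atherosclerotic libraries, and Wnt5a had 0.639 and −0.491. The regimen and genotype ratios use the same 4 libraries, so these are not separate results. The genotype ratio of Wif1 was −5.69 in the normocholesterolemic and 4.20 in the atherosclerotic libraries, the latter from 37 UMIs against 1, fewer than the 50 set for a call.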

How the results depend on the processing

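Of 39 calls of members in the 7 contrasts, 24 were kept under every alternative, including all calls between cell types, and 15 were lost under at least 1. Without the library block the Pi16, Penk, Cilp and Comp contrasts called 491, 587, 146 and 337 genes by edgeR, against 922, 1054, 298 and 675 with it. No filter on low counts gave 1427 genes for Pi16 and 627 for Cilp. Splitting on UMIs relative to each gene's mean, chosen after seeing the data, gave 1704 for Penk, 693 for Cilp and 1407 for Comp. Leaving out 1 library at a time gave 463 to 854 for Pi16, 401 to 1167 for Penk, 125 to 303 for Cilp and 271 to 721 for Comp, each lowest without the normocholesterolemic Nrf2flox/flox library.

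Some values changed sign. With the relative split, Wnt10b (1.102, adjusted p = 0.0007, edgeR) and Dact2 (0.727, adjusted p = 0.0463, edgeR) were called higher in Penk fibroblasts, where neither had been called. With DESeq2, Wif1 in Comp fibroblasts was −0.706. As a mean over fibroblast groups with UMIs in both libraries, the Nrf2flox/flox regimen ratio of Wif1 was 0.286, a value of Penk fibroblasts alone (1 UMI against 15). The cause of the other changes was not tested. Over all fits, 847 of 915 values kept direction and side of the threshold, and 262 of 319 ratios moved by less than their counting interval.

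Groups rest on UMIs of the split genes, so shallow cells fall outside them. Cilp fibroblasts of the atherosclerotic libraries are 7 and 6 cells. One library per condition leaves mouse-to-mouse spread unmeasured.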

Other observations

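Wnt5a was also seen in the few cells gated as mesothelial, the covering cells of serous surfaces. It was at 116, 216 and 204 CPM in the 10, 15 and 2 mesothelial cells of the normocholesterolemic Nrf2flox/flox, normocholesterolemic Nrf2Cdh5tKO and atherosclerotic Nrf2Cdh5tKO libraries (14, 57 and 6 UMIs), and the atherosclerotic Nrf2flox/flox library had 0 such cells.

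The 156 fibroblasts with 2 or more Wif1 UMIs in the normocholesterolemic Nrf2flox/flox library also held other matrix genes, chosen after their values were seen. Postn, a matrix protein of remodelling tissue, was at 1031 against 93.1 CPM in the other fibroblasts, Fmod, a tendon proteoglycan, at 267 against 88.1, Coch at 299 against 2.48, and Comp at 336 against 154. The chondrogenic factor Sox9 was at 197 against 70.4, and Tnnt2, a cardiac troponin gene, at 83.7 against 5.09.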
